A study of Mus musculus with 4 samples.

Results

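Lipopolysaccharide (LPS), the outer-membrane glycolipid of Gram-negative bacteria, is sensed by a complex around Toll-like receptor 4, and the expression of 10 genes of this sensing system was followed in whole mouse brain. The genes were chosen by symbol for their place in the pathway, with earlier results of these data known. The set holds the receptor and co-receptor genes Tlr4, Ly96, Cd14, Tlr2 and Tlr7, the adaptor genes Myd88, Ticam1 and Tirap, and the kinase genes Irak3 and Irak4. These are 10 of 23462 genes and are covered by 17 of the 56605 probes of the array. The probes were matched through the RefSeq accession that the array files give each of them.

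Total RNA was measured on 4 single-colour arrays, each holding 1 of 4 groups: wild-type with PBS, Nav1.8CreROSA26DTA with PBS, wild-type with LPS, and Nav1.8CreROSA26DTA with LPS. The LPS dose was 20 mg/kg into the peritoneum, and the treatment protocol sets the harvest of whole brains at 12 hours. In Nav1.8CreROSA26DTA mice, Cre expressed from the Nav1.8 (Scn10a) locus turns on diphtheria toxin A from the ROSA26 locus and so kills cells of the Nav1.8 lineage, mainly nociceptive sensory neurons whose cell bodies lie outside the brain. The labels do not give the age, sex or strain, which transgene the wild-type mice carried, or whether an array held 1 animal or a pool.

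In the canonical pathway, LPS-binding protein hands LPS to CD14, which passes it to the pair of TLR4 and MD-2 (the product of Ly96). At the cell surface TIRAP recruits MyD88, which assembles with IRAK4 and other IRAK kinases and leads to NF-kB activation, whereas from endosomes TRIF (Ticam1) leads to interferon-beta. IRAK-M, the product of Irak3, is an inhibitory member of the IRAK family. In the brain these genes are known chiefly from microglia and other myeloid cells, and in whole-tissue RNA fewer cells of a type and less RNA per cell cannot be told apart.

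The 4 arrays lay on 1 slide and were read in 1 scan, with the PBS arrays in one row of the slide and the LPS arrays in the other, and with each genotype in a column of its own, so slide position and the groups cannot be told apart. On each array 66.5% to 69.5% of spots stood well above background and 0 were saturated. Probes printed 10 times on an array had a median spot-to-spot SD of 0.0418 to 0.0455 (log2), a technical error only. Neuron (7 of 7), astrocyte (6 of 6) and oligodendrocyte (6 of 6) markers were well above background on all 4 arrays. Values below are log2 signals relative to the array's 75th percentile, and differences are on the same log2 scale. Each effect of LPS was averaged over both genotypes in 1 limma model fitted across 17132 genes. An error given as ± is limma's standard error, and a gene was called at a Benjamini-Hochberg adjusted p under 0.05. With 1 array a group, these p-values pool the spread across genes and do not measure the spread between animals, and precision is limited by how few arrays there are.

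Of the 10 genes, 5 rose with LPS and 0 fell, against 5.62% of all genes tested called higher and 4.54% called lower. The genes called were Tlr2, Irak3, Cd14, Myd88 and Tirap. Since the 10 genes were chosen with earlier results of these data known, the shares over all genes describe the set and do not test it. At an unadjusted p under 0.05, limma placed 7 higher and 0 lower, against 10.4% and 13.1% of all genes tested. The median LPS effect was 0.93, with a range from −0.14 (Ly96) to 3.35 (Tlr2), beside a median of −0.03 over all genes tested. All 10 were well above background on all 4 arrays with the probe that represents the gene, and 9 of them had both LPS arrays above both PBS arrays, an arrangement seen in 21.6% of genes measured on all 4 arrays. LPS exceeded PBS within both genotypes in the same count of 9, against 28.8%. The exception was Ly96, and with normexp or with scaling to the array median the count was 8. With an array left out, 3 or 4 of the 10 were called higher, the 3 being without Nav1.8CreROSA26DTA LPS. The plot of all probes by array shows these values.

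**Figure D1:**
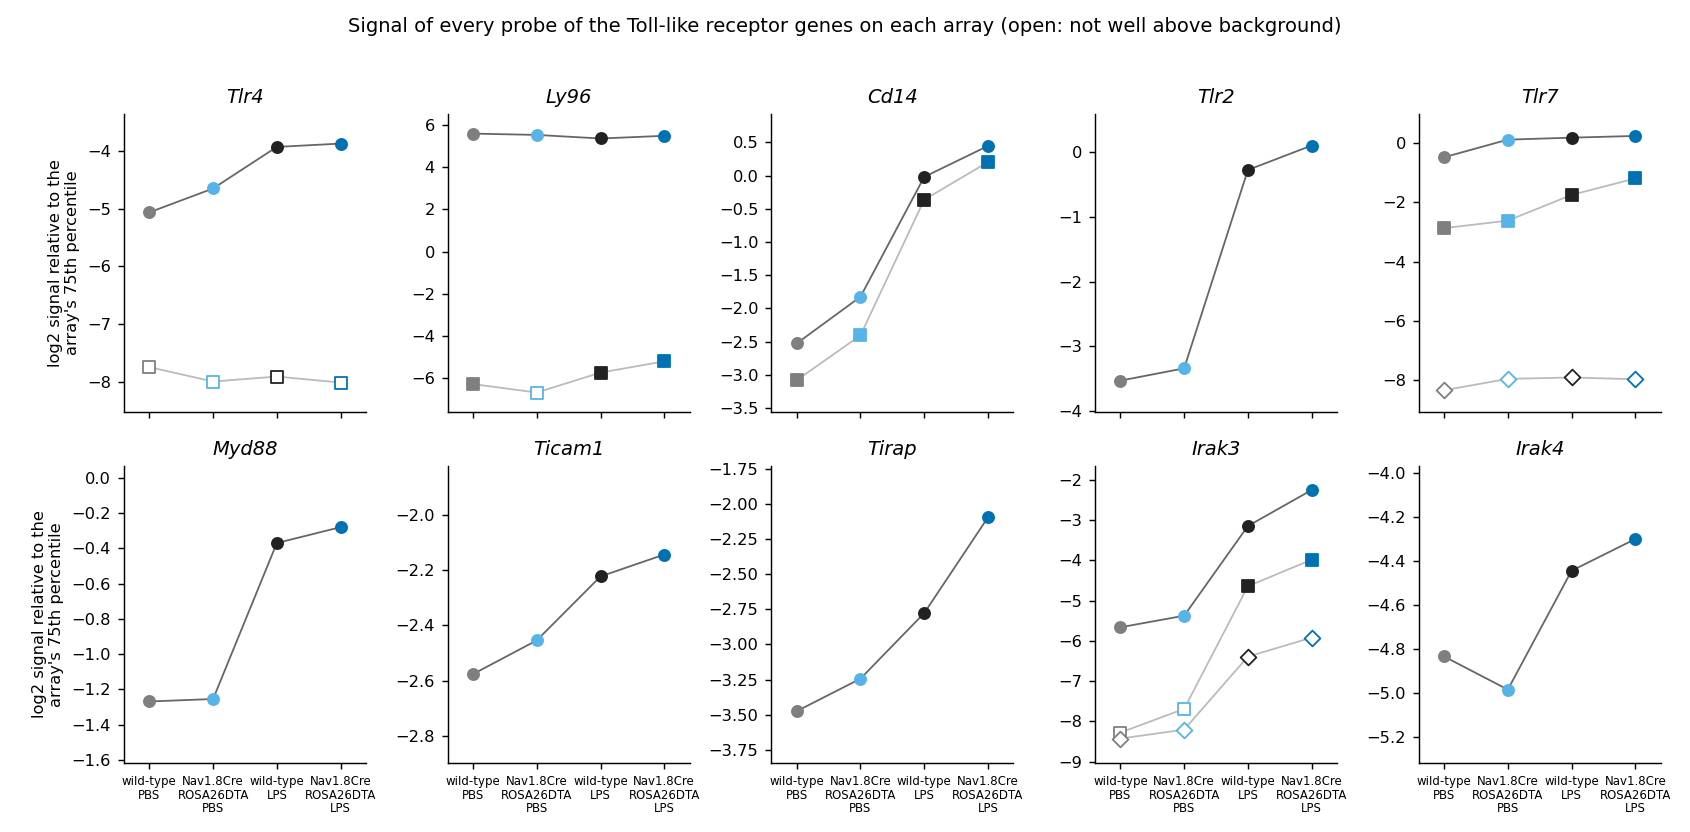
Log2 signal of each of the 17 probes on the 4 arrays, 1 panel per gene with its own vertical scale. Circles are the probe that represents the gene, squares and diamonds its other probes, open symbols were not well above background, and lines join the arrays of a probe. In every panel but that of Ly96 the circles of both LPS arrays lie above those of both PBS arrays.

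Tlr4 encodes the signalling receptor for LPS. Its signal was −5.07 in wild-type and −4.65 in Nav1.8CreROSA26DTA with PBS, and −3.93 and −3.88 with LPS. Both LPS arrays lay above both PBS arrays, yet the averaged difference of 0.96 ± 0.29 did not pass limma's test (adjusted p = 0.0717). It passed when the test was restricted to genes above background on all 4 arrays (adjusted p = 0.0481) or used no such filter (adjusted p = 0.0449), and it was 0.19 with normexp background correction (adjusted p = 0.661). A second Tlr4 probe was not well above background on any array, so the gene rests on 1 dim probe.

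Ly96 encodes MD-2, the secreted protein that binds the lipid part of LPS in the TLR4 complex. Its probes disagreed. The probe for transcript NM_016923 read 5.58, 5.52, 5.35 and 5.48 in the order wild-type PBS, Nav1.8CreROSA26DTA PBS, wild-type LPS and Nav1.8CreROSA26DTA LPS. Its LPS effect was −0.14 ± 0.10 (limma adjusted p = 0.448). The probe for NM_001159711, annotated to the other Ly96 transcript, read −6.27, −6.67, −5.73 and −5.20 and was not well above background on the Nav1.8CreROSA26DTA PBS array. It was higher with LPS by 0.55 in wild-type and by 1.48 in Nav1.8CreROSA26DTA, with an average of 1.01 ± 0.45 that was not called in the fit over 37793 probes (adjusted p = 0.301). Which of the probes follows Ly96 RNA was not tested, and no direction is given for its RNA. Values given for Ly96 elsewhere are from the first probe unless stated otherwise.

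Cd14 encodes the surface and soluble co-receptor that loads LPS onto TLR4. Its signal was −2.53 and −1.82 with PBS in wild-type and Nav1.8CreROSA26DTA, and −0.019 and 0.45 with LPS. The PBS and LPS arrays did not overlap, and within each injection the Nav1.8CreROSA26DTA array was the higher. Cd14 rose by 2.39 ± 0.13, or 5.24-fold, with an adjusted p of 5.8e-06 in limma's test. A second probe gave 2.72 in wild-type and 2.61 in Nav1.8CreROSA26DTA, beside 2.51 and 2.27 for the first.

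Tlr2 encodes the receptor for bacterial lipoproteins, which pairs with TLR1 or TLR6 and also signals through TIRAP and MyD88. It had the largest LPS effect of the 10 genes. Its processed signal, before scaling, was 53.0 and 50.8 on the PBS arrays and 523 and 779 on the LPS arrays. Scaled, the values were −3.53, −3.34, −0.28 and 0.10, so the LPS arrays stood far above the PBS arrays in both genotypes. The rise of 3.35 ± 0.15, or 10.2-fold, had an adjusted p of 1.5e-06 in limma's test and was 2.24 with normexp.

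The promoter of Tlr2 is printed beside those of Myd88 and Irak3 as examples of called genes with a RefSeq start in the sequence table used here, which matched 6 of the 10 genes (Tlr2, Myd88, Ticam1, Tirap, Irak3 and Irak4). Each run holds 250 bases before and 10 after an annotated start, from GRCm38.p6 (RefSeq), read 5′ to 3′ on the gene's strand, whereas the array's design grid names mm9. Capitals mark matches, on either strand, to the kappa-B consensus of NF-kB, to the interferon-stimulated response element and to the Sp1 box GGGCGG.
Tlr2, chr3:83841599-83841858, minus strand: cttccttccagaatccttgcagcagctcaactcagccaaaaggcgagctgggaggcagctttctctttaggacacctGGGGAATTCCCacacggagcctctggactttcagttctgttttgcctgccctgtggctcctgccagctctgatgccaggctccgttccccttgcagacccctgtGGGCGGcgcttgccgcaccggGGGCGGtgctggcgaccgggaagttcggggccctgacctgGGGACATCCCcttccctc
Myd88, chr9:119340009-119340268, minus strand: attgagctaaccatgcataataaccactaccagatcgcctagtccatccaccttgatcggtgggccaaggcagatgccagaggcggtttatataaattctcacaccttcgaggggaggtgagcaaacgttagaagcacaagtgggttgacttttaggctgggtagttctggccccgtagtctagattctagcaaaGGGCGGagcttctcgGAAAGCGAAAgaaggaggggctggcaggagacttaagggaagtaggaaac
Irak3, chr10:120201588-120201847, minus strand: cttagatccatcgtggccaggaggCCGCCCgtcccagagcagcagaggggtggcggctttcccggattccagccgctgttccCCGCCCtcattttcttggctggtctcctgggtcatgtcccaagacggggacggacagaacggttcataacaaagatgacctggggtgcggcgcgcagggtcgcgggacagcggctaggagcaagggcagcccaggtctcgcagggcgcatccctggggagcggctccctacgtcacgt

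In the Tlr2 window the kappa-B consensus matched at −173, at −172 on both strands in an overlapping run, and at −8 from the start. The consensus is found in 4.02% of 32851 promoter windows of that length. The response element matched once, at −40 of Myd88, on the minus strand of the window, and occurs in 3.07% of windows. Sp1 boxes, present in 33.4% of windows, lay at −69 and −48 of Tlr2, −55 of Myd88, and, on the other strand, −226 and −168 of Irak3. Irak3 has 2 annotated starts, and the run belongs to the downstream start. The window of its upstream start held no match to any motif searched. These are matches of letters and show no binding, and the same search found no kappa-B or response-element match in the windows of Ticam1, Tirap, Irak3 and Irak4. A further motif, AP-1 (TGANTCA, in 7.03% of windows), matched in none of the 8 windows of the 6 genes.

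Tlr7 encodes an endosomal receptor for single-stranded RNA that is not an LPS receptor and signals through MyD88. The probe that represents it read −0.49 and 0.10 with PBS and 0.17 and 0.23 with LPS. The difference was 0.66 in wild-type and 0.12 in Nav1.8CreROSA26DTA, averaging 0.39 ± 0.14, and it was not called (limma adjusted p = 0.129). It passed with normexp (adjusted p = 0.0258) and without the filter on dim probes (adjusted p = 0.0142). A second probe, assigned to the same transcript NM_001290755, read −2.88, −2.62, −1.76 and −1.21 and differed more, by 1.12 and 1.42. Its average of 1.27 ± 0.17 was called in the fit over all probes (adjusted p = 0.00388), and the third Tlr7 probe was not well above background on any array. The size of the Tlr7 difference therefore depended on the probe.

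Among the adaptors, Myd88 and Tirap rose and Ticam1 was not called. Myd88, the adaptor shared by most Toll-like receptors and the interleukin-1 receptor family, read −1.27 and −1.25 with PBS and −0.37 and −0.28 with LPS. The 4 values formed a low and a high pair with almost no difference between genotypes. Myd88 rose by 0.94 ± 0.12, or 1.91-fold (limma adjusted p = 0.00141), with 0.90 for wild-type and 0.97 for Nav1.8CreROSA26DTA. Its call ended without the intensity trend (adjusted p = 0.0545) and without the Nav1.8CreROSA26DTA LPS array (adjusted p = 0.0604).

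Tirap encodes MAL, the sorting adaptor that brings MyD88 to TLR4 and TLR2 at the membrane. It read −3.47 and −3.24 with PBS and −2.78 and −2.10 with LPS, and the Nav1.8CreROSA26DTA LPS array stood highest. Tirap rose by 0.92 ± 0.20 (limma adjusted p = 0.0211), with 0.70 for wild-type and 1.15 for Nav1.8CreROSA26DTA. This was the least stable of the 5 calls. It ended whichever array was left out, with 0.81 without wild-type PBS (adjusted p = 0.259), 1.04 without Nav1.8CreROSA26DTA PBS (0.210), 1.26 without wild-type LPS (0.0640) and 0.58 without Nav1.8CreROSA26DTA LPS (0.546). It also ended without the intensity trend (adjusted p = 0.109) or without the genotype term (0.121), and it was 0.49 with normexp.

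Ticam1 encodes TRIF, the adaptor of the interferon-beta arm. It read −2.58 and −2.45 with PBS and −2.22 and −2.14 with LPS. The LPS arrays were the higher pair, by 0.35 in wild-type and 0.31 in Nav1.8CreROSA26DTA, but the average of 0.33 ± 0.17 was not called (limma adjusted p = 0.277). The 95% interval of that difference ran from −0.05 to 0.71.

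The kinase genes differed in the size of their response. Irak3, whose product IRAK-M restrains signalling downstream of MyD88, read −5.66 and −5.37 with PBS and −3.15 and −2.25 with LPS. Irak3 rose by 2.82 ± 0.28, or 7.05-fold (limma adjusted p = 0.000227), with 2.51 for wild-type and 3.12 for Nav1.8CreROSA26DTA, and by 0.94 with normexp. A second probe was well above background on the LPS arrays only and was at least 3.55-fold higher there, against the lowest signal well above background on the PBS arrays. The remaining Irak3 probe was not well above background on any array.

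Irak4, the kinase that starts the phosphorylation cascade in the MyD88 complex, read −4.84 and −4.99 with PBS and −4.45 and −4.30 with LPS. The difference was 0.39 in wild-type and 0.69 in Nav1.8CreROSA26DTA, averaging 0.54 ± 0.31, and was not called (limma adjusted p = 0.341). It was −0.0082 with normexp. Its 95% interval, from −0.16 to 1.23, included changes of more than 2-fold, so no call on this dim probe does not show that Irak4 stayed at its level.

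**Figure D2:**
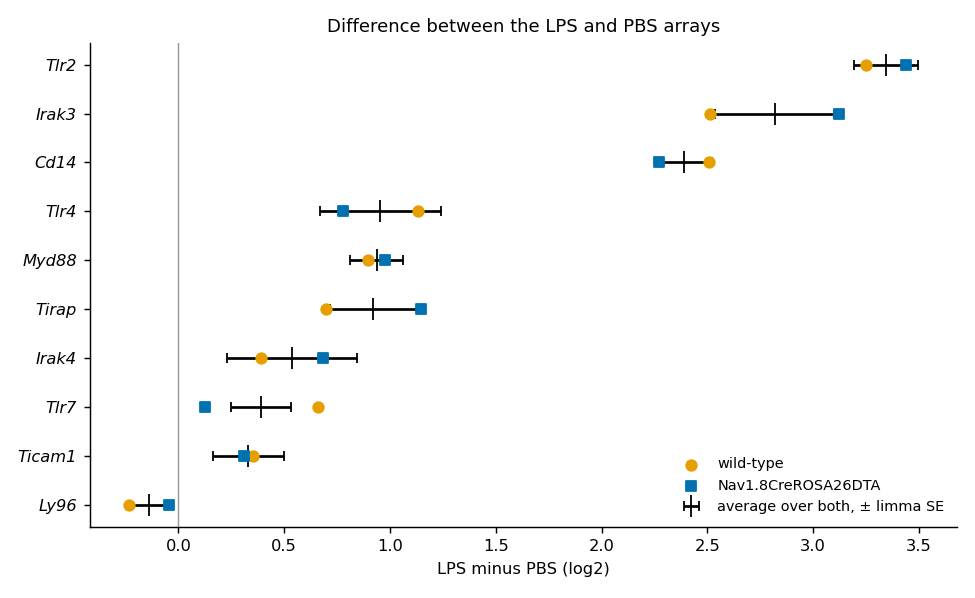
Difference between the LPS and PBS arrays (log2) for the 10 genes, as circles for wild-type and squares for Nav1.8CreROSA26DTA, with the average of both and limma's standard error as bars. Each gene is shown by the probe that represents it. Tlr2, Irak3 and Cd14 lie above 2 in both genotypes, and Ly96, whose probes disagreed, is the only gene whose points are both below 0.

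Within each genotype 1 array was set against 1, with no test. The response was at least 2-fold in 4 of the 10 genes in wild-type, against 3.41% of genes measured on both arrays, and in 4 in Nav1.8CreROSA26DTA, against 3.10%. At least 2-fold lower were 0 in wild-type (0.618%) and 0 in Nav1.8CreROSA26DTA (1.42%). Tlr2, Irak3 and Cd14 were in both sets, Tlr4 passed in wild-type (1.13, against 0.78) and Tirap in Nav1.8CreROSA26DTA (1.15, against 0.70). With its sign kept, LPS minus PBS was higher in Nav1.8CreROSA26DTA for 6 genes, against 44.8% of genes measured on all 4 arrays. It was higher in wild-type for the other 4, Tlr4, Cd14, Tlr7 and Ticam1. The 6 include Ly96, whose representing probe was lower with LPS in both (−0.23 in wild-type and −0.04 in Nav1.8CreROSA26DTA). Its other probe was higher in both (0.55 and 1.48). The difference between the responses ran from −0.54 for Tlr7 to 0.61 for Irak3. It reached 2-fold for 0 of the 10 genes, against 2.50% of genes measured on all 4 arrays, and with 1 array a group it could not be tested.

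In each of the 10 genes the averaged genotype difference was smaller in size than the averaged LPS effect. Between single arrays this did not always hold. Tlr7 differed by 0.59 between the genotypes with PBS, against 0.12 between LPS and PBS in Nav1.8CreROSA26DTA. Averaged over both injections, 0 of the 10 genes were called for genotype in limma's test, against 0.409% of all genes, and 2 had an unadjusted p under 0.05, against 10.2%. These were Cd14, higher in Nav1.8CreROSA26DTA by 0.58 ± 0.13 (adjusted p = 0.118), and Tlr7, by 0.33 ± 0.14 (adjusted p = 0.481). For Cd14 the difference was 0.70 with PBS and 0.47 with LPS, and it was called with normexp (0.51, adjusted p = 0.0135) and without the filter on dim probes (adjusted p = 0.00520). The second Cd14 probe gave 0.62 (adjusted p = 0.238 in the fit over probes).

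All 10 genes read higher in Nav1.8CreROSA26DTA than in wild-type with LPS, and 8 of 10 did so with PBS, where Ly96 (−0.06) and Irak4 (−0.15) were lower. Over all genes measured on all 4 arrays these shares were 50.7% with LPS, 57.2% with PBS and 31.8% with both, beside 8 of the 10. With normexp the counts were 7 with LPS and 9 with PBS. At least 2-fold higher in Nav1.8CreROSA26DTA were 0 of the 10 with PBS (1.21% of genes measured on both arrays) and 0 with LPS (0.829%), and at least 2-fold lower 0 with PBS (0.415%) and 0 with LPS (0.369%). The largest differences with LPS were 0.89 for Irak3, 0.68 for Tirap and 0.47 for Cd14, and those of Tlr4 (0.06), Tlr7 (0.06) and Ticam1 (0.08) were near 0. No gene had both Nav1.8CreROSA26DTA arrays above both wild-type arrays, an arrangement that 16.0% of genes measured on all 4 arrays showed. It cannot occur in the 9 genes whose LPS arrays both lay above both PBS arrays, so this count does not bear on genotype. Averaged differences ran from −0.0032 for Irak4 to 0.59 for Irak3, with a median of 0.26 beside 0.02 over all genes tested.

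**Figure D3:**
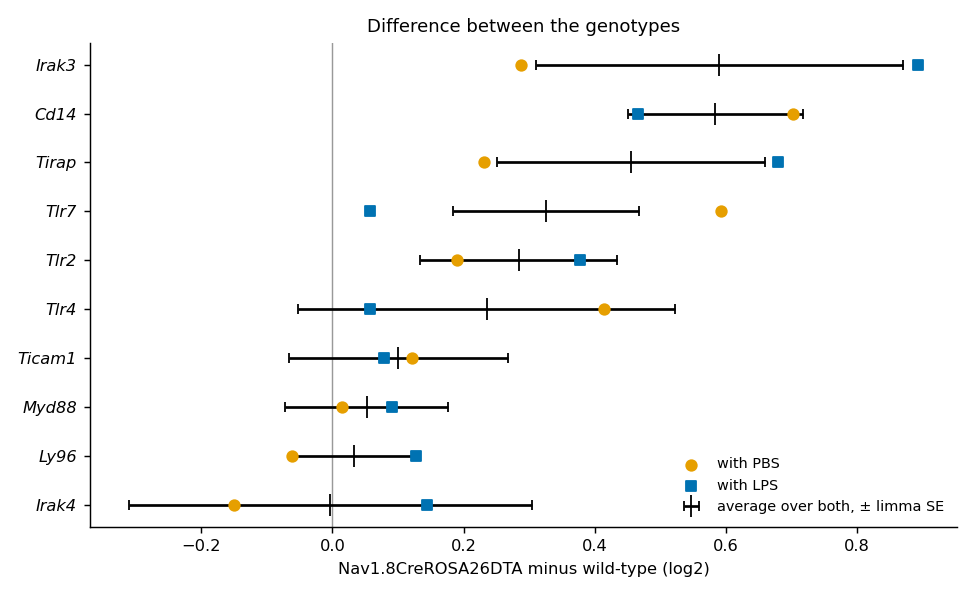
Nav1.8CreROSA26DTA minus wild-type (log2) for the 10 genes, as circles with PBS and squares with LPS, with the average and limma's standard error as bars. The squares all lie above 0, by 0.06 to 0.89, and 0 of the averages passed the test.

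The genes around the complex were followed in 8 further lists, chosen by function, with 30 genes called higher and 1 lower with LPS. When any 1 array was dropped, 18 to 20 of them were called higher and 0 or 1 lower. The median LPS effect over all genes tested, −0.03, is the comparison for each list. For the counts it is the share of all genes tested that limma called, 5.62% higher and 4.54% lower. At an unadjusted p under 0.05 in limma's test these shares were 10.4% and 13.1%. Of 9 other Toll-like receptor genes, 6 could be tested. Tlr13, a receptor for bacterial ribosomal RNA, rose by 0.73 ± 0.12 (limma adjusted p = 0.00517), and 5 were not called, for a median of 0.18. Tlr6, a partner of TLR2, was at 0.92 ± 0.31 and Tlr3, the receptor for double-stranded RNA, at 0.51 ± 0.22, while the signals of Tlr1, Tlr5 and Tlr11 were well above background on at most 1 array. The Tlr13 call ended whichever array was left out (adjusted p = 0.0639 to 0.152), without the intensity trend (0.0832) and with the mean over its probes (0.123).

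Of 10 genes for LPS delivery, accessory proteins and receptor chaperones, 8 were tested, 2 rose and 1 fell, for a median of 0.08. Lbp, the LPS-binding protein gene, read −3.75 and −3.27 with PBS and −0.064 and −0.85 with LPS. It rose by 3.05 ± 0.26 (limma adjusted p = 8.7e-05), with 3.69 for wild-type and 2.42 for Nav1.8CreROSA26DTA, and the call ended without the intensity trend (adjusted p = 0.0549). Ly86, which encodes MD-1, a relative of MD-2, rose by 0.53 ± 0.11 (adjusted p = 0.0183), with 0.35 for wild-type and 0.70 for Nav1.8CreROSA26DTA. Its call ended without the intensity trend, without the genotype term and without any array but wild-type LPS (adjusted p = 0.180 to 0.617), and its effect was 0.26 without the Nav1.8CreROSA26DTA LPS array.

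Tril, which encodes an accessory protein of TLR4 and TLR3 found in the brain, fell by 0.90 ± 0.15 on the log2 scale (limma adjusted p = 0.00438). Both LPS arrays (−2.03 and −2.03) lay below both PBS arrays (−1.22 and −1.05). The call ended without the intensity trend (adjusted p = 0.0658) and without any array but wild-type PBS (0.0743 to 0.0904). The chaperone genes Hsp90b1 (−0.09 ± 0.09) and Cnpy3 (−0.05 ± 0.09), needed for folding of Toll-like receptors, were not called, nor was Unc93b1 (0.34 ± 0.12), which carries endosomal receptors.

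None of 24 tested genes for other adaptors, kinases and ubiquitin ligases was called in limma's test, for a median of 0.04. At an unadjusted p under 0.05 in that test 2 were higher and 3 lower, near the 10.4% and 13.1% of all genes tested. Irak1 was at 0.07 ± 0.10, Irak2 at −0.24 ± 0.15 and the ubiquitin ligase gene Traf6 at 0.25 ± 0.19, each with a limma adjusted p above the threshold (0.757, 0.407 and 0.483). Ticam2, the gene of the bridging adaptor of TRIF, was not well above background on any array. Under other settings at most 1 of these genes was called higher and at most 2 lower.

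Of 17 negative regulators of Toll-like receptor signalling 6 rose and 0 fell, with 10 higher and 1 lower at an unadjusted p under 0.05 in limma's test and a median of 0.43. Tnfaip3, the gene of the deubiquitinase A20, rose by 1.50 ± 0.14 (adjusted p = 0.000179) and Nfkbia, the gene of the NF-kB inhibitor I-kappa-B-alpha, by 1.10 ± 0.09. Atf3, a transcription factor gene, rose by 1.44 ± 0.36 (adjusted p = 0.0357) and the phosphatase gene Ptpn6 by 1.24 ± 0.16 (adjusted p = 0.00133). The call of Atf3 ended under 8 of 14 settings, and its effect was 0.12 with normexp. That of Ptpn6 ended without any array but wild-type LPS (adjusted p = 0.0727 to 0.187). Tollip (0.28 ± 0.09, adjusted p = 0.0822) and Sigirr (0.32 ± 0.21, adjusted p = 0.424) were not called, Tollip passing with 5 of 14 settings. With an array left out, 2 or 3 of the 17 were called.

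Among 10 transcription factor genes of the pathway 5 rose and 0 fell, with a median of 0.49 and 5 higher and 1 lower at an unadjusted p under 0.05 in limma's test. Irf7 rose by 4.14 ± 0.22, Nfkb2 by 1.68 ± 0.15, Irf5 by 0.87 ± 0.18 and Relb by 0.81 ± 0.15 (adjusted p = 4.6e-06, 0.000134, 0.0142 and 0.00793). The calls of Irf5 and Relb ended without the intensity trend (0.0673 and 0.0711) and whichever array was left out (0.0914 to 0.381 for Irf5, 0.0717 to 0.186 for Relb). That of Irf5 also ended with the mean over its probes (0.328) and without the genotype term (0.0659). Rela, Nfkb1 and Irf3 were at 0.15, 0.26 and 0.11 and were not called.

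Downstream, 5 of 11 tested NF-kB target genes rose and 0 fell (7 and 0 at an unadjusted p under 0.05 in limma's test), for a median of 0.83. Bcl3 rose by 3.60 ± 0.16 and the adhesion molecule gene Icam1 by 2.88 ± 0.13, while Tnf was at −0.04 ± 0.16 and Il1b at 0.83 ± 0.26. The chemokine gene Cxcl1 did not pass the background flag on the PBS arrays, and its LPS level was at least 54.8-fold higher. It is among the 5 called and the 11 tested, but entered the test only through the LPS arrays, so its call adds no support. Of 9 target genes of interferon-beta and the TRIF arm, all 8 that could be tested rose, for a median of 3.13, from 0.86 ± 0.17 for Ifit2 to 7.12 ± 0.18 for the chemokine gene Ccl5. The untested gene was Ifnb1, that of interferon-beta itself, which was well above background on the wild-type LPS array only. Of 5 genes of cytosolic LPS sensing 3 rose and 0 fell (4 and 0 at an unadjusted p under 0.05). Casp4, the gene of caspase-11 that binds LPS inside the cell, rose by 2.88 ± 0.17 (adjusted p = 7.9e-06), and the pore-forming substrate gene Gsdmd by 1.46 ± 0.18, a call that ended without the intensity trend (0.0561).

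**Figure D4:**
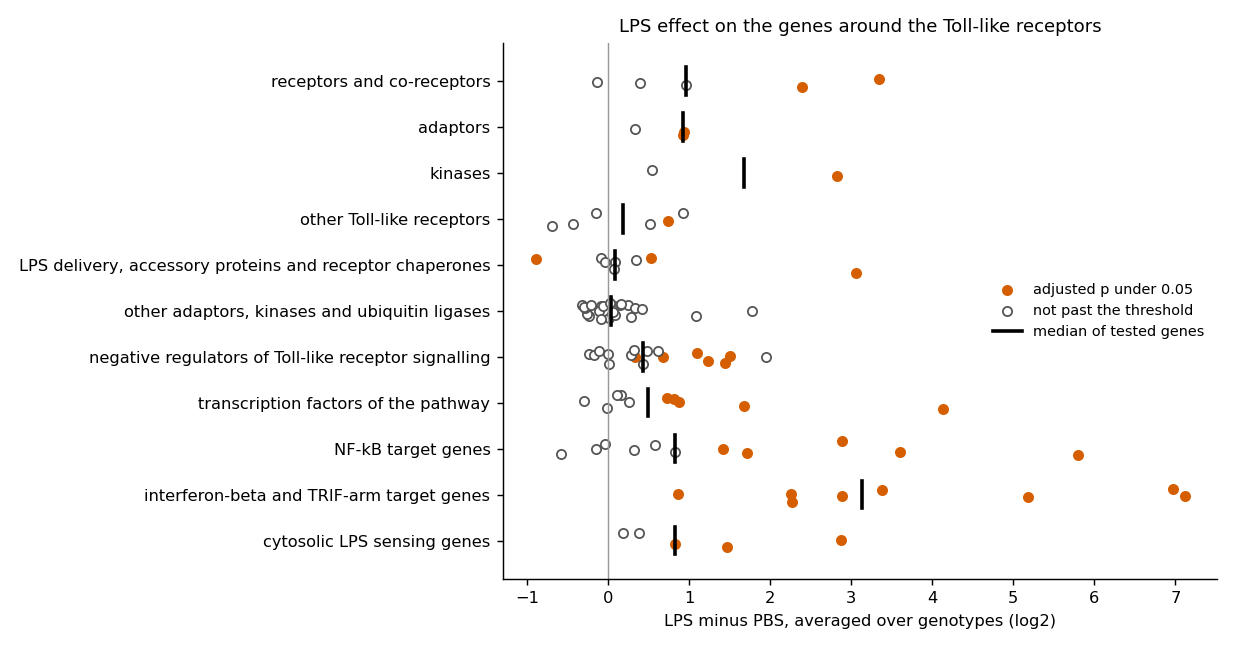
LPS effect averaged over genotypes (log2) for each tested gene of the pathway lists, with filled points for genes past the threshold and a black bar at each list's median. The medians run from 0.04 for the other adaptors, kinases and ubiquitin ligases to 3.13 for the interferon-beta and TRIF-arm targets.

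Marker genes of several cell types changed with LPS, beside 5.62% of all genes tested called higher and 4.54% lower in limma's test. At an unadjusted p under 0.05 in that test the shares were 10.4% and 13.1%. Of 8 brain endothelium markers 1 rose and 4 fell, and of 6 astrocyte markers 2 rose and 1 fell. Of 7 neuron markers 0 rose and 2 fell. Of 6 oligodendrocyte and 5 border macrophage markers 1 each rose and 0 fell. At an unadjusted p under 0.05 in limma's test, 1 oligodendrocyte marker was higher and 3 lower, with a median of −0.29. For border macrophage markers these counts were 1 and 1, with a median of −0.24. The lymphocyte, choroid plexus and red blood cell lists had 0 calls. Of 11 microglia markers 5 fell and 0 rose with LPS (limma; 8 and 0 at an unadjusted p under 0.05), and all 11 were well above background on every array. Their median LPS effect was −0.42, and Gpr34 (−3.78 ± 0.24), P2ry12 (−2.73 ± 0.15) and Cx3cr1 (−0.92 ± 0.12) had the lowest values. Their summed signal, in units of the array's 75th percentile, was 127, 122, 123 and 117 for wild-type PBS, Nav1.8CreROSA26DTA PBS, wild-type LPS and Nav1.8CreROSA26DTA LPS. Siglech, at 0.11 ± 0.10 and not called, made up 59.0% to 69.9% of that sum, and without it the sums were 42.9, 50.1, 37.1 and 35.2. Of 10 neutrophil markers 5 rose and 0 fell (6 and 1 at an unadjusted p under 0.05), with sums of 0.837, 4.45, 5.79 and 8.21 and Cxcr2 not well above background on any array. Of 5 monocyte markers 3 rose and 0 fell (4 and 0), with sums of 6.79, 7.44, 24.7 and 21.4 and Ccr2 above background on 1 array. Ly6c2 made up 89.3% to 96.8% of the monocyte sums, which were 0.217, 0.799, 0.936 and 1.51 without it. Without S100a9, the brightest neutrophil marker, the neutrophil sums were 0.727, 2.16, 2.46 and 3.07. The part of these cells in the rise of Tlr2, Cd14 and Irak3 was not tested.

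Between the genotypes, 0 genes of the microglia, neutrophil, monocyte and red blood cell lists were called in limma's test. At an unadjusted p under 0.05 in that test, 7 of 9 tested neutrophil, 3 of 4 monocyte and 4 of 4 red blood cell markers were higher in Nav1.8CreROSA26DTA and 0 lower. Of 11 microglia markers 0 were higher and 1 lower. Over all genes tested, 10.2% had an unadjusted genotype p under 0.05 in either direction, a share that the microglia count was near. The median genotype difference was 0.0078 for microglia, 1.52 for neutrophil, 1.34 for monocyte and 1.81 for red blood cell markers. The red blood cell list had sums of 45.4, 335, 108 and 174 in the order above, so the PBS arrays differed most. Oligodendrocyte markers, at 0.73, included 2 called genes, against 0.409% of all genes tested. At an unadjusted p under 0.05 in limma's test, 6 of 6 were higher in Nav1.8CreROSA26DTA. Whether blood or cell makeup contributed to the higher readings of the 10 genes in Nav1.8CreROSA26DTA was not tested.

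**Figure D5:**
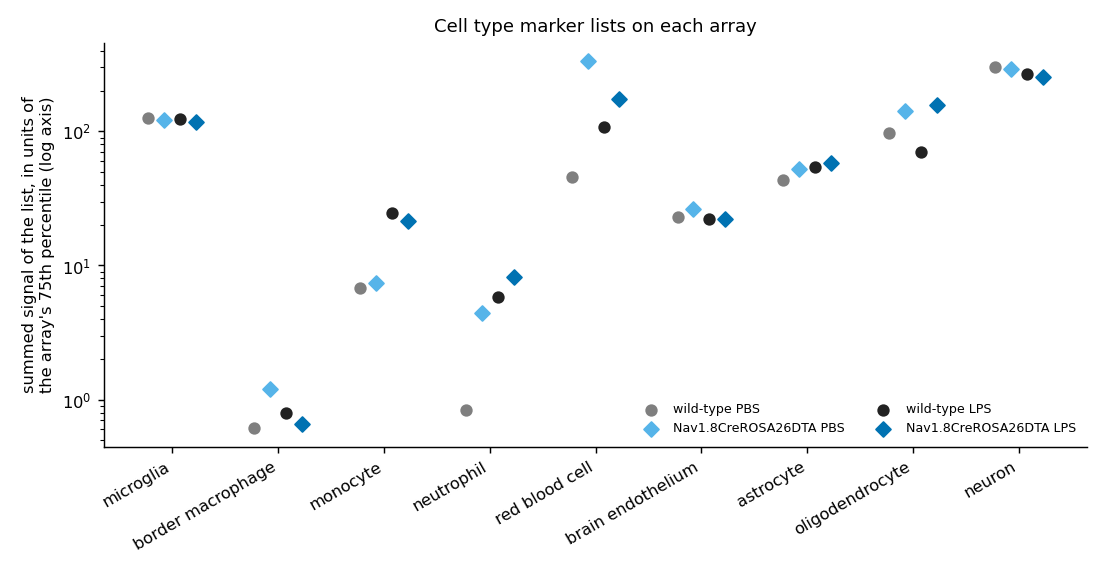
Summed signal of each marker list on the 4 arrays, in units of the array's 75th percentile on a log axis, with circles for wild-type and diamonds for Nav1.8CreROSA26DTA. The neutrophil sum is lowest on the wild-type PBS array (0.837) and the red blood cell sum highest on the Nav1.8CreROSA26DTA PBS array (335), while microglia sums, of which Siglech is 59.0% to 69.9%, lie between 117 and 127.

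The genes whose 4 values were most like those of Tlr2, by Euclidean distance of the centred log2 values among 16234 genes measured on all 4 arrays, were AA467197 (0.18), Lao1 (0.21), Pglyrp1 (0.23), Ifitm7 (0.27) and Oas1a (0.27). Their LPS differences in wild-type ran from 3.01 for Pglyrp1 to 3.55 for Oas1a, and in Nav1.8CreROSA26DTA from 3.09 for Ifitm7 to 3.49 for Lao1, beside 3.25 and 3.44 for Tlr2. The likeness covers 4 arrays only.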

How the data were processed

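The deposited files are the scanner output of 4 Agilent single-colour (Cy3) arrays. Feature Extraction was version 11.0.1.1 per the submitters' processing notes and 12.0.3.1, with a design on mm9, per the file headers. The deposited intensity used is the processed signal, whose correction steps are not given in the sources used here. Other deposited columns hold median intensity and flags of 0 or 1. The deposited value table, an intensity with scaling not given in the sources used here, equalled the processed signal times 1 factor per array (1.57 to 2.09) within 0.1% for at least 59304 of 59305 spots. Its column medians were 97.2, 91.4, 103 and 102 in the order of wild-type PBS, Nav1.8CreROSA26DTA PBS, wild-type LPS and Nav1.8CreROSA26DTA LPS.

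Processed signals were divided by the array's 75th percentile (612, 514, 634 and 726 in that order) and put on the log2 scale. The 81 to 96 spots per array marked as outliers were left out, and spots of a probe were averaged. RefSeq accessions gave 1 symbol to 33767 of 56605 probes (GRCm38.p6 gene table, names only). For each gene the probe above background on the largest number of arrays was taken, and among equals the one of highest mean. The 17132 genes above background on at least 2 arrays entered limma 3.58.1 in R 4.3.3 (lmFit, eBayes with intensity trend; genotype and agent as terms). It leaves 1 residual degree of freedom, pooled with 7.99 from other genes, so a true difference of response counts as error. The script was tested on simulated data. Tests were two-sided.

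The members and gene lists were chosen with earlier results of these data known. All 10 members are named, and from each list up to 4 called genes of largest effect, dim genes, and Lbp, Ticam2, Irak1, Irak2, Traf6, Tollip and Sigirr. Further genes named, such as Tlr6, Tlr3, Hsp90b1, Cnpy3, Unc93b1, Rela, Nfkb1, Irf3, Tnf, Il1b and Ifit2, were chosen after their values were seen. Normexp used the median spot signal, since the files hold no mean. Alternatives changed background correction, scaling, the filter, the probe rule, the variance model, the model terms and the arrays used. Where a probe failed the background flag on both PBS arrays, the bound sets its LPS mean against a floor, taken per PBS array as the dimmest probe that passed the flag or the probe's own signal, whichever was brighter.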

Additional observations from a re-analysis of the deposited data

Results flagged for a closer look

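For Ly96, the difference between the genotypes had opposite signs with PBS (−0.06) and LPS (0.13), so the responses differed by 0.19. For Irak4 the signs were opposite too (−0.15 and 0.14), with a difference of 0.30. LPS minus PBS for Irak1 was −0.01 in wild-type and 0.15 in Nav1.8CreROSA26DTA, a difference of 0.16. For Irak2 it was 0.14 and −0.62, a difference of −0.75. Both wild-type values were smaller in size than limma's standard error of the averaged effect (0.10 and 0.15), so their signs are not established. The red blood cell markers had a median LPS difference of 1.19 in wild-type and −1.13 in Nav1.8CreROSA26DTA, a difference of −2.31. Each of these rests on 1 array a group, and the differences were not tested.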

How the results depend on the processing

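No paired analysis was possible because each group holds 1 array and the labels give no replicate numbers. The rises of Tlr2, Cd14 and Irak3 were called under every alternative setting run (at least 15 each, single-probe fits included). The second Irak3 probe entered the fit over probes only through the LPS arrays, where it was high, so its call adds no support. The causes of the changes below were not tested unless the construction shows them. With normexp, 1 of the 10 genes was called for genotype, 3 listed genes were called lower, and 383 of all genes were called for genotype. The median LPS difference of the 10 genes was then 0.51 in wild-type and 0.35 in Nav1.8CreROSA26DTA, the Irak4 LPS effect −0.0082 and the Irak4 genotype effect 0.0095. Scaling to the array median gave 3 listed genes lower, 1292 of all genes lower, 197 for genotype and an Irak4 genotype effect of 0.012. Cyclic loess gave 433 lower, 19 for genotype, and genotype effects of −0.012 for Ly96 and 0.038 for Irak4. Quantile normalization gave 125 for genotype, 0.0010 for the Ly96 LPS effect, and genotype effects of −0.024 for Ly96 and 0.011 for Irak4. The deposited value table gave 433 lower, 28 for genotype and −0.0044 for the Ly96 genotype effect.

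Without the filter on dim probes, 1 of the 10 genes was called for genotype, 5 listed genes lower, 1583 of all genes higher, 1567 lower and 958 for genotype. The mean over all probes gave 504 lower and 12 for genotype, with LPS effects of 0.44 for Ly96 and −0.054 for Irak1, and the second Ly96 probe gave 1.01. Without the intensity trend, 3 of the 10 genes and 16 listed genes were called higher and 0 listed genes lower, with 382 of all genes higher, 48 lower and 0 for genotype. Without the other factor, 597 were higher, 278 lower and 0 were called for genotype. The share of calls that were higher was 55.3% as reported, 46.6% with normexp, 42.7% with median scaling, 68.4% with loess, 58.6% with quantile normalization and 70.7% in the deposited table.

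With an array left out, 3 to 4 of the 10 genes and 18 to 20 listed genes were called higher and 0 to 1 listed genes lower, with 370 to 514 of all genes higher, 70 to 187 lower and 0 for genotype. These fits hold fewer arrays and 1 term, so the lone array of a group is assumed to vary like the others, and the genotype values take in part of the LPS difference. They ran from −0.33 to 0.80 for Tlr4, −0.083 to 0.15 for Ly96, −0.67 to 1.84 for Cd14, −1.44 to 2.003 for Tlr2, −0.0044 to 0.66 for Tlr7, −0.44 to 0.54 for Myd88, −0.076 to 0.28 for Ticam1, −0.12 to 1.03 for Tirap, −0.97 to 2.15 for Irak3 and −0.35 to 0.34 for Irak4. Signal near background limits Tlr4, Irak3, Irak4 and the second Ly96 probe.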
